A study of Mus musculus with 9 samples.

Results

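Lungs of mice instilled with bleomycin were compared with lungs of vehicle mice, over every probe set of the array. The comparison rests on 6 of the 9 arrays of the study, 3 bleomycin lungs against 3 vehicle lungs, and on 41345 probe sets per array. The other 3 arrays, from bleomycin mice that also received homoharringtonine, entered the model of the spread and no difference given here. All mice were male C57BL/6J, instilled through the trachea at 8 weeks of age and 11 weeks old as labelled. The bleomycin mice received 2 U/kg. The vehicle mice are labelled vehicle-treated, and the shared protocol names PBS as the alternative to bleomycin and vehicle as the alternative to homoharringtonine, injected into the peritoneum from day 5, 2 times a week for 15 days. Both groups therefore carried an instillation and repeated vehicle injections, as far as the protocol tells. The tissue was lung, without sorting of cells, and total RNA was hybridised. Nothing in the labels says whether an array held 1 mouse or a pool. Replicates are numbered as in the labels, and p-values measure the spread between these arrays.

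Bleomycin is an antibiotic that breaks DNA. Instilled into rodent airways, it kills alveolar epithelium, draws in monocytes and neutrophils, and within weeks leads fibroblasts to lay down collagen, an injury that in mice partly resolves. Activated fibroblasts make contractile proteins and matrix under signals that include TGF-beta, monocyte-derived macrophages clear debris and feed that response, and type 2 epithelial cells pass through a transitional state on the way to flat type 1 cells.

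The arrays lay on a common scale, with medians between 4.49 and 4.57 on the log2 scale and lower quartiles near 3.21 to 3.24, so a signal under about 4 is dim. On the leading principal component of the 6 arrays, which held 49.2% of their variance, the vehicle lungs lay at -29.5, -44.5 and -51.7 and the bleomycin lungs at 20.4, 52.8 and 52.5. Markers of lung were bright in every array, as with the surfactant protein gene Sftpa1, whose log2 signal was at least 10.18 in all 6. Gene names were available for 2010 probe sets, of 1908 genes, which the authors had listed as changed in at least 1 of their comparisons on these same arrays. Each count of named genes below is therefore taken among genes already chosen for a change, describes those genes, and supports no statement about the rest of a list.

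Bleomycin changed the lung transcriptome in both directions, with more probe sets lower than higher on the deposited scale and 1581 higher against 1558 lower after median centring. In limma, with Benjamini-Hochberg adjustment over all probe sets, 3218 of 41345 passed an adjusted p of 0.05 (7.78%). Of these, 1392 (3.37%) were higher and 1826 (4.42%) lower in bleomycin lungs. Falls prevailed among changes over 2-fold (381 rises, 594 falls) and rises among those over 4-fold (62 rises, 42 falls) and over 8-fold (10 rises, 1 fall). Of the 39335 probe sets without a name 1606 were called (4.08%), 724 higher (1.84%) and 882 lower (2.24%). Among the 1908 named genes 1523 were called (79.8%), 634 higher (33.2%) and 889 lower (46.6%), and these 3 shares are the background against which the list counts below are to be read. The median log2 difference was 0.02 over all probe sets and -0.67 over named genes. The arrays of the groups did not overlap in 11569 of 41345 probe sets (28%), so lack of overlap alone is common. The number called depends on single arrays. It fell to 2109, 1252 and 1136 without vehicle replicates 1, 2 and 3, and to 1380 and 1690 without bleomycin replicates 2 and 3, whereas 3396 were called without bleomycin replicate 1. Of 526 called genes that belong to a list or to the largest changes, 309 stayed past the threshold in every fit without 1 array.

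**Figure D1:**
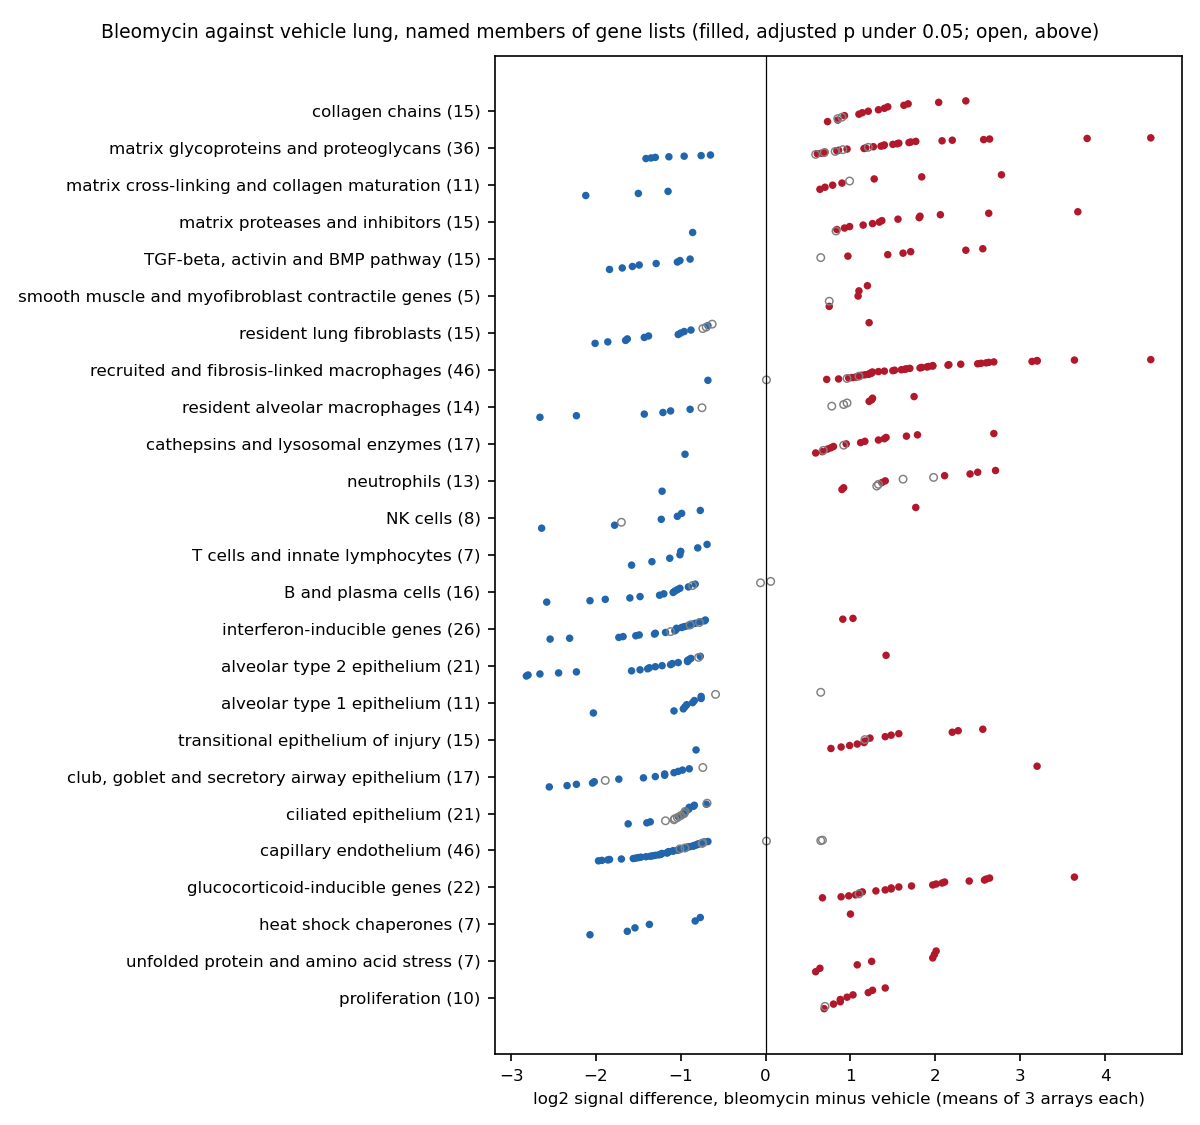
Log2 signal difference, bleomycin minus vehicle (x axis), of each named member of 25 gene lists (rows, number measured in brackets), means of 3 arrays each. Filled points passed an adjusted p of 0.05 (red higher, blue lower) and open points did not. Collagens, matrix proteases, recruited macrophage genes and glucocorticoid-inducible genes lie to the right. Capillary, alveolar, airway, lymphocyte and interferon-inducible genes lie mostly to the left.

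The fibrillar collagens rose together. Type I collagen is the main load-bearing fibre of scar, and its chain Col1a1 read 8.05, 8.15 and 7.99 in vehicle lungs and on average 10.42 ± 0.37 (SD, n = 3) in bleomycin lungs on the log2 scale. The bleomycin lungs were all above the vehicle lungs, by 5.12-fold on average (log2 difference 2.36, SE 0.21, adjusted p 0.00115). The partner chain Col1a2 rose 3.1-fold, the type III chain Col3a1 2.64-fold, and the type V chains Col5a1 and Col5a2, which set fibril diameter, 3.2-fold and 4.12-fold. Col4a1 of basement membrane rose 2.51-fold and Col6a3 of the microfibril network around cells 2.72-fold. Of 15 collagen genes measured under a name 13 rose and 0 fell, with a median log2 difference of 1.21. Col11a1 (log2 difference 0.85) and Col8a1 (0.90) did not pass, with adjusted p values of 0.0661 and 0.0906. The chains given a fold above passed in every fit without 1 array.

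Other structural matrix genes went both ways. Fibronectin (Fn1), the adhesive glycoprotein of provisional matrix, read 8.93, 8.79 and 8.95 in vehicle and 11.47, 11.56 and 11.36 in bleomycin lungs, a rise of 5.95-fold (adjusted p 0.00105). Among elastic fibre genes fibrillin 1 (Fbn1) rose 2.93-fold and the TGF-beta-binding Ltbp2 3.28-fold. The matricellular thrombospondins Thbs1 and Thbs2 rose 4.22-fold and 3.22-fold, while their relative Thbs3 fell 2.55-fold. Small proteoglycans and fibulins were divided too. Prelp fell 2.66-fold, Ogn 2.2-fold and the fibulin Efemp1 2.46-fold, while the proteoglycans Aspn and Fmod rose 2.63-fold and 2.62-fold and the fibulin Fbln2 2.84-fold. Bgn (log2 difference 0.59) and Lum (0.91) did not pass. Efemp1 read 8.70, 9.08 and 9.00 in vehicle lungs and 8.01, 7.41 and 7.47 in bleomycin lungs, without overlap. Of 36 measured matrix glycoproteins and proteoglycans 24 rose, 7 fell and 5 did not pass, with a median log2 difference of 1.17. Those counts were 15 and 2 without vehicle replicate 2, 15 and 1 without vehicle replicate 3, and 2 fell without bleomycin replicate 2 or 3. On the 6 arrays alone 4 fell. Fn1, Fbn1, Thbs1 and Efemp1 kept their calls in every fit without 1 array, as did Fbln2, whereas Thbs2, Thbs3, Ltbp2, Prelp, Ogn, Aspn and Fmod lost theirs in at least 2.

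Enzymes that mature and cross-link collagen also went both ways. The lysyl oxidase gene Lox, whose product joins collagen and elastin chains, read 6.62, 6.77 and 6.98 in vehicle and 9.19, 9.71 and 9.80 in bleomycin lungs. It rose 6.85-fold (adjusted p 0.00179). The proline hydroxylase subunit P4ha3 rose 3.57-fold from a vehicle signal of 4.38 to 4.55, and the collagen chaperone Fkbp10 2.43-fold. In the other direction, the procollagen processing enhancer Pcolce2 went from 9.52, 9.46 and 9.65 to 7.47, 7.16 and 7.65, a fall of 4.34-fold (adjusted p 0.00151). The hydroxylase subunit P4ha1 fell 2.22-fold, in the same lungs in which P4ha3 rose. In all 7 of 11 measured members rose and 3 fell.

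Matrix proteases and their inhibitors rose with the matrix. Of 15 measured, 13 rose, 1 fell and 1 did not pass. The membrane-bound collagenase Mmp14 rose from 7.06, 7.15 and 7.26 to 9.10, 9.10 and 8.73, or 3.54-fold (adjusted p 0.00323). The protease inhibitor Serpine2 rose 3.51-fold, and the secreted protease Adamts12 2.53-fold. Mmp15, a membrane-type relative of Mmp14, fell 1.81-fold, and lost that call in 4 of the 6 fits without 1 array. The macrophage elastase Mmp12 read 9.05, 7.97 and 6.91 in the bleomycin lungs against 5.21 to 5.61 in vehicle, so all 3 were above the vehicle range but differed widely among themselves. Its rise of 6.17-fold (adjusted p 0.0127) was not called without vehicle replicate 2 (adjusted p 0.0532).

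Signals of the TGF-beta superfamily split by gene. Gremlin 1 and follistatin bind and block BMPs and activins, and Inhba encodes an activin subunit. Follistatin (Fst) read 5.23, 4.69 and 5.24 in vehicle lungs and 7.23, 7.60 and 8.01 in bleomycin lungs, 5.9-fold higher (adjusted p 0.00124). Gremlin 1 (Grem1) read 7.03, 7.84 and 5.40 in bleomycin lungs over a vehicle range of 4.18 to 4.77, 5.13-fold higher with a wide spread (SE 0.54 on the log2 scale, adjusted p 0.0333). Inhba rose 3.07-fold and the follistatin-like Fstl1 2.71-fold. The BMP ligand and receptor genes of this list fell, and so did the antagonist Chrdl1 (2.06-fold). The ligand Bmp6, made by endothelium, went from 8.08, 8.31 and 8.40 to 6.54, 6.23 and 6.5 (3.57-fold lower, adjusted p 0.00358), and the ligand Bmp3 fell 3.23-fold. Of the endothelial receptors, Acvrl1 fell 2.44-fold, its co-receptor endoglin (Eng) 2.81-fold and Bmpr2 1.85-fold, and Smad6, an inhibitor that BMP signals induce, fell 2.98-fold. In this list 6 of 15 measured genes rose and 8 fell, with 2 rises and 5 falls without vehicle replicate 2, 3 rises without vehicle replicate 3, and 3 rises and 5 falls without bleomycin replicate 2. Grem1, Inhba and Bmpr2 were among the calls lost when an array was left out, and Fst, Fstl1, Bmp6, Bmp3, Smad6, Acvrl1 and Eng were not.

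Other growth factor genes gave smaller differences. Among FGF receptors, Fgfr1 of mesenchyme rose 2.14-fold while Fgfr2, the receptor on alveolar epithelium, fell 2.64-fold. Fgfr2 read 8.34, 8.57 and 8.49 in vehicle and 7.36, 6.82 and 7.02 in bleomycin lungs (adjusted p 0.00263). The Wnt modulator Sfrp1 rose 2.8-fold, and the Hedgehog receptor Ptch1 and the decoy Hhip fell 1.89-fold and 2.01-fold. In the insulin-like growth factor axis Igf1 rose 2.25-fold and the binding protein Igfbp6 fell 3.09-fold. Of 8 measured Wnt, Hedgehog and FGF genes 3 rose and 5 fell. With 1 array left out the falls numbered 3 without vehicle replicate 1 or bleomycin replicate 3, 1 without vehicle replicate 2 or 3, and 2 without bleomycin replicate 2. Both rises of the 4 measured IGF genes were lost without vehicle replicate 1 or 3 or bleomycin replicate 2, and 1 of them without vehicle replicate 2 or bleomycin replicate 1. Igf1, Ptch1 and Hhip lost their calls in at least 2 such fits, and Fgfr1, Fgfr2, Sfrp1 and Igfbp6 in none.

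Contractile genes rose while genes of resident fibroblasts fell. Smooth muscle actin (Acta2), the classical marker of myofibroblasts, read 8.12, 8.36 and 7.86 in vehicle and 8.96, 9.47 and 9.20 in bleomycin lungs (2.14-fold higher, adjusted p 0.00879). Transgelin (Tagln) rose 2.29-fold and the actin cross-linker Actn1 2.14-fold. Of 5 measured contractile genes 4 rose and 1, tropomyosin 2 (Tpm2), did not pass (log2 difference 0.75, adjusted p 0.0601). In the list of resident lung fibroblasts 11 of 15 measured genes fell, 1 rose and 3 did not pass, with a median log2 difference of -1.0. The lipofibroblast transcription factor Tcf21 fell 2.6-fold, the amine methyltransferase Inmt 3.09-fold and the channel-like Scn7a 3.62-fold. The integrin subunit Itga8, a marker of alveolar fibroblasts, read 8.90, 8.96 and 9.24 in vehicle and 7.86, 7.25 and 7.05 in bleomycin lungs, 3.14-fold lower (adjusted p 0.00324). Lipoprotein lipase (Lpl), also made by macrophages, was the member that rose (2.33-fold), and its call was lost without vehicle replicate 3. In whole tissue, fewer cells of a type and less RNA per cell cannot be told apart, which holds for every cell type list that follows.

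Integrins, the receptors for matrix, also went both ways. The fibronectin receptor subunit Itga5 rose 2.14-fold and the leukocyte subunit Itgam 3.16-fold, while Itga8 and the collagen-binding Itga1 (2.77-fold) fell. The collagen-binding Itga2 fell 1.77-fold, a call lost in 4 of the fits without 1 array. Itgbl1, an integrin-like secreted protein, read 6.47, 6.36 and 5.45 in bleomycin lungs over a vehicle range of 4.32 to 4.46, 3.29-fold higher. Of 8 measured integrin genes 5 rose and 3 fell, with 3 rises without vehicle replicate 2.

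**Figure D2:**
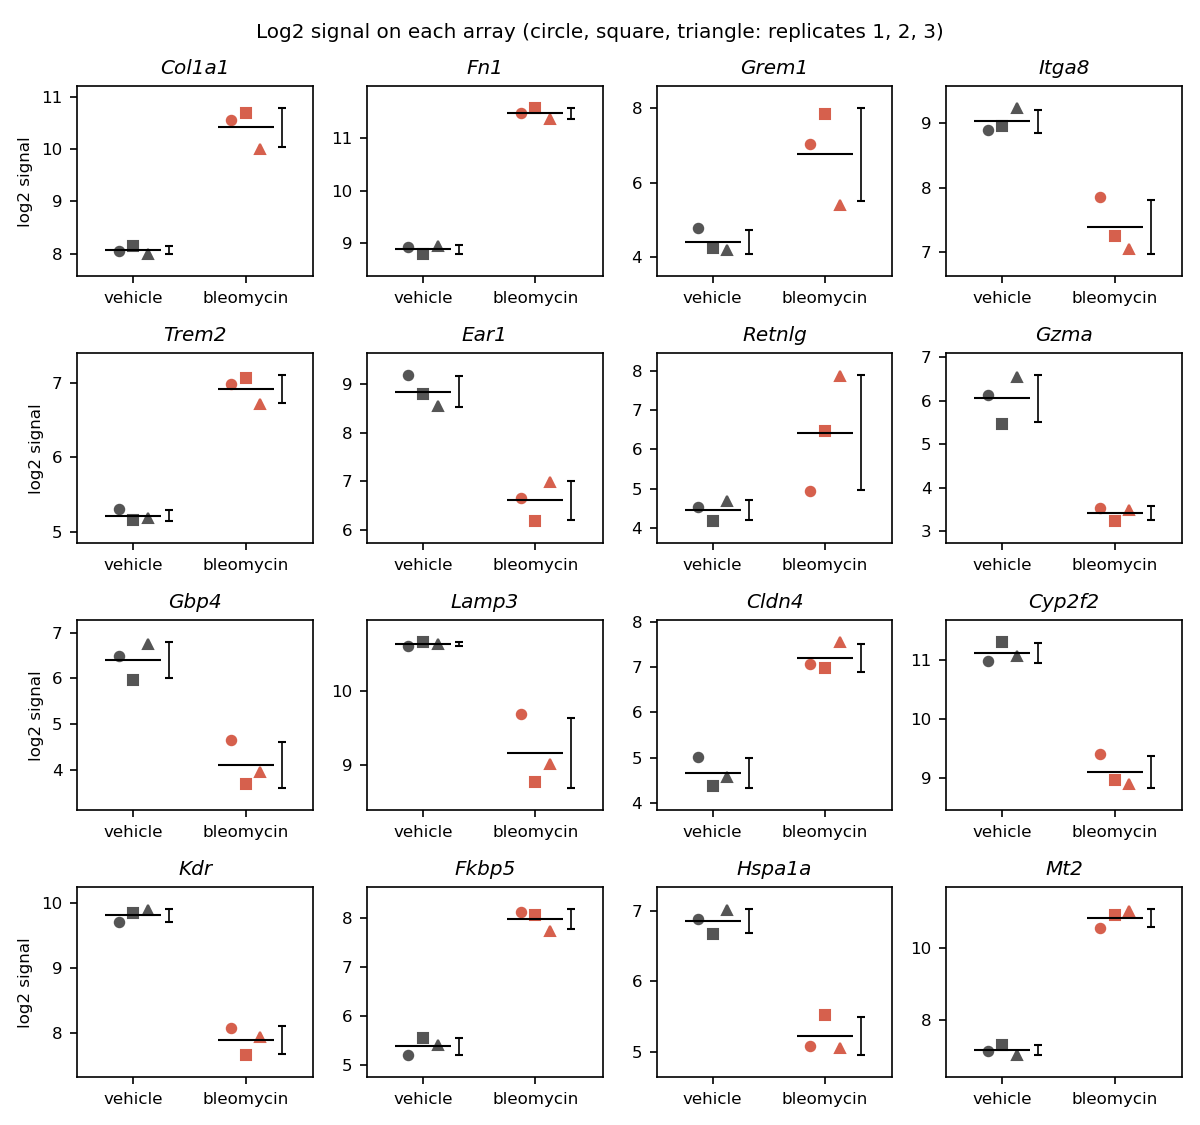
Log2 signal (y axis, one scale per panel) of 16 genes in the 3 vehicle and 3 bleomycin lungs, with the mean (line) and SD (bar, n = 3). The groups do not overlap for any of the 16, as in 28% of all 41345 probe sets. Retnlg did not pass the threshold, and the 3 bleomycin lungs spread most for Retnlg and Grem1.

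Macrophage genes rose in larger number than those of any other list. In the list of recruited and fibrosis-linked macrophages 42 of 46 measured genes rose, 1 fell and 3 did not pass, with a median log2 difference of 1.56 against -0.67 over all named genes. The lipid-sensing receptor Trem2 read 5.31, 5.16 and 5.19 in vehicle and 6.99, 7.06 and 6.71 in bleomycin lungs, 3.25-fold higher (adjusted p 0.000626). The pan-macrophage receptor gene Adgre1 (F4/80) rose 2.37-fold and the endosomal sialomucin Cd68 3.93-fold. Retnla, a secreted product of type 2 immunity, read 6.85, 7.30 and 6.87 in vehicle and 9.84, 10.22 and 10.56 in bleomycin lungs. The scavenger receptor gene Cd163 (log2 difference 1.10, adjusted p 0.0691), the chitinase-like Chil3 (0.96, adjusted p 0.178) and the perivascular marker Lyve1 (0.01, adjusted p 0.992), which lymphatic endothelium shares, all missed the threshold. The fatty acid receptor gene Cd36, abundant in capillary endothelium too, fell 1.6-fold, and was not called without vehicle replicates 2 or 3 or bleomycin replicate 2.

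Genes of resident alveolar macrophages went both ways. Of 14 measured, 4 rose, 6 fell and 4 did not pass, and the median log2 difference was 0.02. That split is near the share of all named genes, of which 33.2% were higher and 46.6% lower. Of the fallen genes Car3 and Cidec stand in the fat list too, and Flt1 in that of capillary endothelium. Of the risen genes Ccl6, Mrc1 and Lpl stand in the list of recruited macrophages too. Among brighter probe sets 6 rose and 5 fell, with a median of 0.78. The eosinophil-type ribonuclease Ear1 went from 9.18, 8.79 and 8.55 to 6.66, 6.18 and 6.99, 4.69-fold lower (adjusted p 0.00512). Krt79 and the fatty acid-binding protein Fabp1 fell 2.7-fold and 2.17-fold, Fabp1 to a dim 3.14 to 3.35. The scavenger receptors Marco (3.37-fold) and Mrc1 (2.37-fold) rose, and both are also expressed by other macrophages. Krt79 lost its call in 4 of the fits without 1 array.

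The microRNA gene Mir511 lies inside Mrc1 and can be read beside it. It was named here after its values had been seen. Its mature sequence, from RefSeq (build GRCm38.p6, chr2:14261051-14261072, plus strand), is shown with the seed, bases 2 to 8, in capitals, since the seed is what pairs with targets.
mmu-miR-511-3p: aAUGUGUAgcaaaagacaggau
The Mir511 probe set read 5.23, 4.85 and 4.38 in vehicle and 5.79, 6.27 and 6.74 in bleomycin lungs, 2.73-fold higher (adjusted p 0.0151), and Mrc1 read 7.88, 7.85 and 7.69 against 8.87, 9.38 and 8.91. The 2 probe sets moved the same way. A probe set over a hairpin inside a gene can hybridise to the host transcript, and the mature microRNA was not measured separately.

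Lysosomal enzymes rose with the macrophage genes, and Ctsk, Ctsb, Ctsd and Ctsl belong to both lists. Legumain (Lgmn), an asparagine-specific lysosomal protease, read 7.97, 8.08 and 8.06 in vehicle and 9.64, 9.95 and 9.91 in bleomycin lungs (3.46-fold, adjusted p 0.000519). Cathepsin K (Ctsk), the strongest collagen-degrading cathepsin, read 8.63, 8.77 and 7.72 over a vehicle range of 5.65 to 5.74, and cathepsins S (Ctss) and D (Ctsd) rose 3.16-fold and 2.64-fold. Of 17 measured genes 14 rose and 1 fell, with 9 rises without vehicle replicate 1. The fall, of a proton pump subunit, was not called on the 6 arrays alone.

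Opsonin and pattern receptor genes rose in the same lungs. The 3 chains of C1q, which tags debris and immune complexes and is made by macrophages, rose 4.48-fold (C1qa), 6.05-fold (C1qb) and 3.79-fold (C1qc). C1qb read 6.78, 6.97 and 6.70 in vehicle and 9.42, 9.62 and 9.20 in bleomycin lungs. The C3a receptor gene C3ar1 rose 4.99-fold, coagulation factor XIII (F13a1) 3.57-fold and tissue factor (F3) 3.7-fold. The terminal complement components went the other way. Hc, which encodes C5, read 10.76, 10.96 and 10.87 in vehicle and 9.25, 7.66 and 7.29 in bleomycin lungs (6.96-fold lower, adjusted p 0.00959), and C6 and C7 fell 1.92-fold and 2.33-fold. Of 18 measured complement and coagulation genes 9 rose, 5 fell and 4 did not pass. The C1q chains and Itgam, among the rises, were counted in the macrophage list too. Among the falls, Hc stands in the list of type 2 epithelium too, Thbd in that of capillary endothelium and Cd55 in that of B and plasma cells. The call of C7 was lost without vehicle replicate 3 or bleomycin replicate 2.

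C-type lectins and Fc receptors went both ways. The myeloid lectins Clec4d, Clec4n and Clec5a rose 5.65-fold, 3.74-fold and 4.44-fold, and the low-affinity IgG receptor Fcgr3 rose 3.13-fold. The inhibitory receptor gene Lilr4b rose 3.52-fold. Clec14a of endothelium fell 2.88-fold, and the dendritic cell lectins Clec9a and Cd209a fell 1.86-fold and 2.06-fold, calls that were both lost without vehicle replicate 2 or bleomycin replicates 2 or 3. The monocyte receptor gene Cd300e fell 1.83-fold, a call lost in 5 fits without 1 array, and the myeloid lectin Clec12a (log2 difference 0.59) did not pass. Of 22 measured genes 14 rose and 6 fell, with 3 falls without vehicle replicate 2 or bleomycin replicate 2 or 3. All the risen genes but Lilr4b, Lilrb4a, Fcgr3 and Cd300lf were counted in the macrophage list too.

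Neutrophil genes rose unevenly. The decoy receptor gene Il1r2 read 3.87, 3.70 and 3.63 in vehicle lungs and 4.55, 6.23 and 6.77 in bleomycin lungs (4.33-fold, adjusted p 0.0294). The alarmin S100a8 read 5.66, 4.59 and 5.62 in vehicle and 5.62, 7.56 and 7.55 in bleomycin lungs, and did not pass (adjusted p 0.0953). Retnlg, another neutrophil product, read 4.94, 6.46 and 7.89 over a vehicle range of 4.16 to 4.68 (adjusted p 0.0869). In all 3 genes bleomycin replicate 1 was the lowest of the bleomycin lungs, and for S100a8 it lay within the vehicle range. Of 13 measured genes 8 rose, 1 fell and 4 (Ltf, Retnlg, S100a8 and S100a9) did not pass. Of the risen genes Clec4d stands in the macrophage list too, and Il1r2 and Lcn2 in the list of glucocorticoid-inducible genes. Without bleomycin replicate 1, 10 rose. The rises numbered 4 without bleomycin replicate 2 and 5 without bleomycin replicate 3 or any 1 vehicle replicate, and Il1r2 lost its call in each of those fits. Stfa2l1, also a neutrophil marker, belongs to a family of near-identical stefins and its probe set is of cross-hybridisation type 3, so its 5.32-fold rise, lost in 5 fits without 1 array, cannot be assigned to that copy.

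Chemokine and cytokine genes moved both ways. The monocyte attractant Ccl2 read 5.45, 6.74 and 7.20 in bleomycin lungs over a vehicle range of 4.61 to 4.86 (3.37-fold, adjusted p 0.0259). Ccl9, another myeloid attractant, read 6.81, 6.53 and 6.78 in vehicle and 8.51, 8.74 and 8.80 in bleomycin lungs (3.93-fold, adjusted p 0.000681). The B cell attractant Cxcl13 rose 2.96-fold. The alarmin Il33, held in nuclei of type 2 cells and stroma, went from 8.18, 8.00 and 8.06 to 6.97, 6.35 and 6.84 (2.57-fold lower, adjusted p 0.00897), and the T cell attractant Ccl5 fell 1.99-fold. Against 33.2% higher and 46.6% lower among all named genes, 8 of 19 measured ligands rose and 8 fell. Each of these counts was 5 or fewer without any 1 of vehicle replicates 1 to 3 or bleomycin replicates 2 and 3, down to 2 and 2 without vehicle replicate 3. Of 15 measured receptors 11 rose, among them Ccr1 (3.35-fold) and the TWEAK receptor Tnfrsf12a (3.23-fold), and 4 fell. The receptor rises numbered 7 without vehicle replicate 1 or bleomycin replicate 3, 5 without vehicle replicate 2, 4 without vehicle replicate 3 and 6 without bleomycin replicate 2. Ccl9, Il33 and Tnfrsf12a held in every fit without 1 array, and Ccl2, Ccl5, Cxcl13 and Ccr1 did not.

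Lymphocyte genes fell. Granzyme A (Gzma), a killing protease of NK cells, read 6.14, 5.47 and 6.54 in vehicle and 3.53, 3.22 and 3.49 in bleomycin lungs, where it was dim. The NK receptor gene Ncr1 fell 3.43-fold, to a similarly dim 3.25 to 3.71, and Klrd1 fell 2.06-fold. Of 8 measured NK genes 6 fell, 1 rose and 1 did not pass, and 3 fell among brighter probe sets. The risen gene, the protease inhibitor Serpinb9b (3.42-fold), lost its call without vehicle replicate 2 or 3. Among T cell and innate lymphocyte genes 7 of 7 measured fell, including the GTPase genes Gimap4 (2.54-fold) and Gimap8 (2.19-fold). In the list of B and plasma cells 13 of 16 measured genes fell, 0 rose and 3 did not pass. The B cell identity factor Pax5 read 5.50, 5.35 and 5.71 in vehicle and 3.97, 3.85 and 3.96 in bleomycin lungs (3.03-fold lower, adjusted p 0.00105). Cd79a, of the B cell receptor complex, fell 2.3-fold.

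Antibody genes varied widely among the bleomycin lungs. The joining chain gene Jchain read 5.54, 5.85 and 5.81 in vehicle and 6.48, 6.74 and 4.15 in bleomycin lungs, 2 of which were above and 1 below every vehicle lung (adjusted p 0.971). The heavy chain gene Ighm read 8.89, 8.65 and 7.63 in bleomycin lungs over a vehicle range of 8.27 to 8.62 (adjusted p 0.936). Of 33 measured immunoglobulin segments 4 fell, 0 rose and 29 did not pass. Their median deviation from vehicle was 0.01, -0.08 and -1.24 in bleomycin replicates 1, 2 and 3. Such segments are near-copies of each other, and probe sets cannot be assigned to a single segment with confidence.

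Interferon-inducible genes fell in the injured lungs. Guanylate-binding proteins and immunity-related GTPases are induced by interferon and act against intracellular pathogens. Of 26 measured members 21 fell, 2 rose and 3 did not pass, with a median log2 difference of -1.05. Gbp4 read 6.49, 5.97 and 6.75 in vehicle and 4.66, 3.68 and 3.95 in bleomycin lungs (4.95-fold lower, adjusted p 0.00269). Ifi203 fell 3.32-fold, Gbp9 2.9-fold and the ubiquitin ligase gene Herc6 2.48-fold. The rises, of Ifi204 (2.04-fold) and Slfn9 (1.88-fold), were not stable, and no more than 1 of them was called in any fit without 1 array or on the 6 arrays alone.

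A motif known to answer to interferon was looked for in the promoters of these genes. Within 250 bases before the RefSeq start (build GRCm38.p6), GAAA followed by any 2 bases and GAAA again, searched on both strands, occurred in 11 of the 19 measured members with a promoter sequence, and in 978 of 32851 promoters in all (2.98%). Ifi203, Stat2, Gbp5 and Slfn5 were among those holding it. So were Slfn9, which was higher, and Trim30a, which did not pass. The calls of Stat2, Gbp5 and Slfn5 were each lost in at least 1 fit without 1 array. A match is a description of letters and not of a bound site. The list was made of genes that interferon induces, so its motif share describes that choice. It says nothing about the fall in bleomycin lungs. The 100 bases before the start are shown for 5 fallen members, 5′ to 3′ on the gene's strand, with the motif in capitals (it reads TTTC, 2 bases, TTTC where it lies on the other strand).
Gbp2, chr3:142620563-142620662, plus strand: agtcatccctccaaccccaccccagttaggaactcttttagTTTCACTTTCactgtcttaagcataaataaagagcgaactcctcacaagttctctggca
Gbp7, chr3:142530236-142530335, plus strand: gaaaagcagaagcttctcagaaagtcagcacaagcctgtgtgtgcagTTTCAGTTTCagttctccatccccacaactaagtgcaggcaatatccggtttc
Igtp, chr11:58199456-58199555, plus strand: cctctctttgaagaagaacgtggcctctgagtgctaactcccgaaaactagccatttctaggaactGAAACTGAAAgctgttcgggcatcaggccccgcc
Irgm2, chr11:58214877-58214976, plus strand: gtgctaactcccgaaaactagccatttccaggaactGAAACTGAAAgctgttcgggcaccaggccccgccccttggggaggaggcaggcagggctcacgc
Tgtp2, chr11:49064213-49064312, minus strand: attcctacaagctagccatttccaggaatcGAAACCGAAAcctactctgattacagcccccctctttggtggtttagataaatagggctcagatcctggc
In these 5 windows the motif ended 49, 43, 24, 54 and 60 bases before the start, in the order shown. Their log2 differences were -0.96 for Gbp2, -1.30 for Gbp7, -0.92 for Igtp, -1.18 for Irgm2 and -1.68 for Tgtp2, with adjusted p values from 0.00508 to 0.0254. Tgtp2 read 5.03, 4.37 and 4.52 in vehicle and a dim 3.30, 2.61 and 2.96 in bleomycin lungs. Igtp and Irgm2 are neighbouring copies whose windows read alike around the motif, and paralogous copies may share signal between probe sets. Gbp7 and Tgtp2 kept their calls in every fit without 1 array, and Gbp2, Igtp and Irgm2 lost theirs in 1 to 5 of the 6 fits.

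Alveolar epithelial genes fell. Type 2 cells make surfactant and store it in lamellar bodies, and 19 of 21 measured markers fell, 1 rose and 1 did not pass, with a median log2 difference of -1.22. Lamp3, a membrane protein of those bodies, read 10.61, 10.67 and 10.64 in vehicle and 9.69, 8.77 and 9.01 in bleomycin lungs (2.8-fold lower, adjusted p 0.00897). The surfactant lipid pump gene Abca3 fell 1.9-fold, Sftpa1 1.87-fold, the identity factor Etv5 2.32-fold and the phosphate transporter Slc34a2 2.05-fold. Larger falls were in Acoxl (7.05-fold) and the incretin receptor Glp1r (5.44-fold), whose log2 signals went from 9.00, 8.78 and 9.16 to 6.88, 6.43 and 6.30. The type 2 falls numbered 12 without vehicle replicate 1, 9 without vehicle replicate 2 or 3, and 11 without bleomycin replicate 2 or 3. Lamp3, Acoxl and Glp1r held in all of these fits, and Abca3, Sftpa1, Etv5 and Slc34a2 did not. The risen member was the cathepsin gene Ctsh (2.68-fold), which macrophages express too. Of 11 measured type 1 genes 9 fell, led by Rtkn2 (4.08-fold) and including caveolin 1 (Cav1, 1.96-fold), and 5 fell without vehicle replicate 2.

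Genes of the transitional epithelial state rose while those of mature cells fell. The tight junction gene Cldn4 read 5.01, 4.36 and 4.57 in vehicle and 7.07, 6.99 and 7.56 in bleomycin lungs (5.89-fold, adjusted p 0.00125). Keratin 18 (Krt18) rose 2.25-fold, keratin 8 (Krt8) 1.85-fold and the calcium-binding S100a6 2.65-fold. Sprr1a, a cross-linked envelope protein, read 5.59, 5.85 and 7.78 over a vehicle range of 4.01 to 4.23, with bleomycin replicate 3 far above the other bleomycin lungs. Of 15 measured genes 13 rose and 1 fell. The rises numbered 8 on the 6 arrays alone, 7 without vehicle replicate 1 or bleomycin replicate 2, and 6 without vehicle replicate 2 or 3. Cldn4, Krt18 and S100a6 held in every fit without 1 array, and Krt8 and Sprr1a did not. Several of these markers are also expressed by injured epithelium of other kinds and by macrophages.

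Airway epithelium fell as well. Club cells detoxify inhaled chemicals, and their cytochrome gene Cyp2f2 read 10.98, 11.30 and 11.07 in vehicle and 9.40, 8.97 and 8.90 in bleomycin lungs (4.07-fold lower, adjusted p 0.00176). The potassium channel gene Kcnj13 fell 5.87-fold and the polymeric immunoglobulin receptor gene Pigr 2.04-fold. The secretoglobin Scgb3a2 (log2 difference -0.74, adjusted p 0.0601) and Bpifb1 (-1.89, adjusted p 0.129, vehicle range 7.53 to 9.03) did not pass. Of 17 measured secretory genes 14 fell and 1 rose, with 9 falls without vehicle replicate 2. Of 21 measured ciliated cell genes 13 fell, 0 rose and 8 did not pass, including the dynein heavy chain gene Dnah6 (2.64-fold) and the tubulin-binding Tppp3 (3.08-fold). The ciliated falls numbered 4 without vehicle replicate 2 or 3 and 5 without bleomycin replicate 2 or 3, and 20 among brighter probe sets only. Dnah6 and Tppp3 held in every fit without 1 array.

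Enzymes of xenobiotic and retinoid metabolism mostly fell. Of 20 measured xenobiotic enzymes and transporters 13 fell and 3 rose. The flavin monooxygenase gene Fmo1 read 9.71, 9.51 and 9.66 in vehicle and 8.48, 8.03 and 7.89 in bleomycin lungs (2.82-fold lower, adjusted p 0.00263), and Cyp4b1 fell 3.31-fold. The falls numbered 7 without vehicle replicate 2 and 8 without vehicle replicate 3, and none of the rises was called without vehicle replicates 1 or 2 or bleomycin replicate 2. Of 6 measured retinoid genes 5 fell. Lrat, which stores retinol as esters, went from 8.65, 8.61 and 8.72 to 5.36, 5.42 and 5.05. The list members Aldh1a7, Aox3 and Dhrs3 fell 2.72-fold, 5.08-fold and 2.22-fold. Many of these falls were counted among the secretory airway genes too. They are Aox3, Cyp2f2, Cyp4b1, Cbr2 and Gsta3 of the xenobiotic list, and Aox3, Aldh1a7 and Aldh1a1 of the retinoid list.

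Capillary endothelial genes fell as a block. Of 46 measured, 39 fell, 0 rose and 7 did not pass, with a median log2 difference of -1.06. The VEGF receptor gene Kdr read 9.70, 9.84 and 9.89 in vehicle and 8.07, 7.65 and 7.93 in bleomycin lungs (3.81-fold lower, adjusted p 0.00105). The angiopoietin receptor Tek fell 2.51-fold, the BMP-induced Tmem100 3.92-fold, and the junctional proteins Pecam1 and Cdh5 2.05-fold and 2.02-fold. Among the 7 that did not pass were Gpihbp1, which anchors lipoprotein lipase (log2 difference 0.65, adjusted p 0.122), and Ly6c1 (0.67, adjusted p 0.173), which monocytes share. Between 28 and 42 members fell when 1 array was left out. In the large-vessel and lymphatic list 3 rose and 3 fell of 8 measured. The calcification inhibitor Mgp, also a fibroblast gene, rose 2.33-fold and the lymphatic gene Reln 2.32-fold, while the arterial Notch genes Dll4 (2.71-fold) and Hey1 (1.73-fold) fell. The rises numbered 1 without vehicle replicate 2 or 3 and the falls 1 without vehicle replicate 3. Mgp held in every such fit, and Reln, Dll4 and Hey1 did not.

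The endothelial microRNA gene Mir126a, inside Egfl7, fell with these genes. It too was chosen after its values were seen. Its mature sequence is shown from RefSeq (GRCm38.p6, chr2:26591402-26591423, plus strand) with the seed in capitals, which differs from that of miR-511-3p.
mmu-miR-126a-3p: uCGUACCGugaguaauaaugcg
The Mir126a probe set read 4.17, 4.47 and 4.60 in vehicle and 2.61, 2.41 and 2.48 in bleomycin lungs, 3.77-fold lower (adjusted p 0.00352). Bleomycin values lay below the lower quartile of the arrays, so the size of the fall rests on dim signal.

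Vessel-tone signals were mostly lower, and angiogenic factors went both ways. The endothelin receptor gene Ednrb read 8.22, 8.13 and 8.43 in vehicle and 6.30, 6.27 and 7.09 in bleomycin lungs (3.25-fold lower, adjusted p 0.00466). The adrenomedullin receptor gene Calcrl fell 2.46-fold, apelin (Apln) 2.82-fold and its receptor Aplnr 2.94-fold, while the peptide adrenomedullin (Adm) rose 1.63-fold from a vehicle signal of 4.89 in all 3 lungs. Adm lost its call without vehicle replicate 2 or 3 or bleomycin replicate 2. Of 12 measured vasoactive genes 8 fell and 2 rose. Of 14 angiogenic factors 8 fell and 5 rose, where 46.6% of all named genes were lower and 33.2% higher. Vegfa, the main endothelial survival factor, read 10.84, 10.90 and 10.87 in vehicle and 9.92, 9.65 and 10.20 in bleomycin lungs (1.93-fold lower, adjusted p 0.0413). It was not called in any fit without 1 array. Placental growth factor (Pgf, 2.3-fold) and Pdgfc (2.52-fold), ligands for related receptors, rose, and Pgf lost its call in 5 such fits. The falls among angiogenic factors numbered 5, 3 and 3 without vehicle replicates 1, 2 and 3 and 4 without bleomycin replicate 2, and the rises 2 or 3 without any 1 array but bleomycin replicate 1.

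Acute-phase genes rose, and the metal-binding Mt1 and Mt2 belong to that list. Of 12 measured acute-phase genes 10 rose, Mt1 and Mt2 included, and 0 fell. Saa3, a serum amyloid made locally in inflamed tissue, read 4.12, 4.03 and 3.68 in vehicle and 8.84, 10.02 and 7.86 in bleomycin lungs. The protease inhibitor Serpina3n read 7.94, 8.09 and 8.03 against 10.47, 10.88 and 10.63 (6.22-fold, adjusted p 0.000424), and Lrg1 rose 4.22-fold. The metallothioneins bind zinc and copper. Mt2 read 7.16, 7.33 and 7.04 in vehicle and 10.54, 10.89 and 11.02 in bleomycin lungs, and Mt1 rose 5.28-fold.

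Genes that glucocorticoids induce rose, with a similar list median in each bleomycin lung. Single members such as Il1r2 differed more between the lungs. Of 22 measured, 21 rose, 0 fell and 1 did not pass, with a median log2 difference of 1.52. Fkbp5, a co-chaperone of the glucocorticoid receptor, read 5.20, 5.55 and 5.41 in vehicle and 8.14, 8.07 and 7.75 in bleomycin lungs (6.05-fold, adjusted p 0.000626). The transcription factor Zbtb16 rose 3.29-fold, the tyrosine aminotransferase Tat 4.03-fold, the kinase Sgk1 2.2-fold and the pyruvate dehydrogenase kinase Pdk4 2.79-fold. The median rise of the list was 1.57, 1.49 and 1.58 in bleomycin replicates 1, 2 and 3, with 15 to 22 genes called when 1 array was left out. Some members stand in more than 1 list. Of the risen genes Mt1, Mt2, Serpina3n, Serpina3m, Lrg1, Lcn2 and Cebpd were counted among the acute-phase rises too. No agent of this class is named in the protocol, and hormone levels were not measured.

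Clock genes that glucocorticoids also reach moved in opposite directions. Per1 rose from 6.70, 7.13 and 6.52 to 8.37, 8.27 and 8.17 (2.79-fold, adjusted p 0.00425) and Per2 rose 1.73-fold. The core activator Arntl fell from 7.21, 7.03 and 7.29 to 5.55, 5.93 and 5.93 (2.59-fold, adjusted p 0.00123), and its partner-like Npas2 fell 1.85-fold. The output gene Dbp (log2 difference -0.10, adjusted p 0.863) and Per3 (0.19, adjusted p 0.711) did not pass. Of 9 measured clock genes 4 rose and 2 fell, and the rises numbered 2 without vehicle replicate 1 or bleomycin replicate 2 or 3, and 1 without vehicle replicate 2 or 3. Per1, Arntl and Npas2 held in each of these fits, and Per2 was lost without any 1 vehicle replicate. The labels give no hour of collection, and its part in these values was not tested.

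Heat shock chaperones fell. Hsph1, which recharges Hsp70, read 7.72, 7.90 and 8.03 in vehicle and 5.74, 5.67 and 6.01 in bleomycin lungs (4.21-fold lower, adjusted p 0.00105). The inducible Hsp70 gene Hspa1a fell 3.1-fold and its near-identical neighbour Hspa1b 2.92-fold, 2 values that may share signal. The Hsp90 co-chaperones Chordc1 and Fkbp4 fell 2.59-fold and 1.71-fold. Of 7 measured genes 6 fell and 1, the muscle chaperone Hspb7, rose (2-fold).

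Oxidative and amino acid stress genes rose in part. Heme oxygenase (Hmox1), which degrades heme, read 7.01, 7.67 and 8.51 in bleomycin lungs over a vehicle range of 5.17 to 5.64 (5.11-fold, adjusted p 0.0199). The cystine transporter gene Slc7a11 rose 4.02-fold from a dim 2.61 to 2.95, and glutathione reductase (Gsr) 1.83-fold. Catalase (Cat), which breaks down hydrogen peroxide, fell 2.73-fold, and extracellular superoxide dismutase (Sod3) 1.69-fold. Of 11 measured antioxidant genes 7 rose and 4 fell, with 1 or 2 falls without any 1 of vehicle replicates 1 to 3 or bleomycin replicates 2 and 3. The leucine transporter gene Slc7a5 rose from 4.31, 4.97 and 4.71 to 6.53, 6.64 and 6.78 (3.96-fold, adjusted p 0.00196), and Ddit4, an inhibitor of mTORC1, rose 3.93-fold. All 7 measured amino acid stress genes rose, and 4 without vehicle replicate 2 or 3. Hmox1 and Sod3 lost their calls in at least 4 fits without 1 array, and Slc7a11, Slc7a5, Gsr, Cat and Ddit4 kept theirs.

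DNA damage and growth genes rose by smaller factors. The p53 target Cdkn1a, which arrests the cell cycle, read 7.58, 7.36 and 7.10 in vehicle and 8.76, 8.65 and 9.34 in bleomycin lungs (2.96-fold, adjusted p 0.00394). Bax, which opens mitochondria in cell death, rose 1.63-fold. Of 7 measured p53 targets 6 rose, with 3 without vehicle replicate 2. Of 10 proliferation genes 9 rose, led among classical markers by the cytokinesis gene Anln (2.39-fold) and the mitotic kinase Cdk1 (2.31-fold). Mki67 read 6.14, 5.77 and 6.24 in vehicle and 6.76, 7.24 and 7.24 in bleomycin lungs. The proliferation rises numbered 5 without vehicle replicate 1 or 3, 2 without vehicle replicate 2 and 3 without bleomycin replicate 2 or 3, and Anln held throughout while Cdk1 and Mki67 did not. Of 23 ribosomal protein genes and pseudogenes 21 rose, by 1.9-fold for Rpl32, whose probe set is of cross-hybridisation type 3 like many of this near-identical family. The ribosomal rises numbered 13, 8 and 10 without vehicle replicates 1, 2 and 3, and 9 and 10 without bleomycin replicates 2 and 3.

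Energy metabolism, transport and channels gave divided lists, where 33.2% of all named genes were higher and 46.6% lower. Of 8 measured glycolysis and hypoxia genes 6 rose, including hexokinase 2 (Hk2, 1.82-fold), phosphoglycerate kinase (Pgk1, 1.97-fold) and pyruvate kinase (Pkm, 1.93-fold). Pgk1 read 7.40, 7.62 and 7.53 in vehicle and 8.25, 8.63 and 8.60 in bleomycin lungs. Of 13 lipid genes 6 rose and 7 fell, with 3 rises on the 6 arrays alone, 3 rises and 4 falls without vehicle replicate 2, 2 and 4 without vehicle replicate 3, and 4 falls without bleomycin replicate 2. The sterol hydroxylase gene Ch25h rose 4.98-fold. Of 28 measured solute carriers 12 rose and 12 fell, with 6 falls without vehicle replicates 2 or 3 or bleomycin replicates 2 or 3. The macrophage metal transporter Slc11a1 rose 2.47-fold and the zinc importer Slc39a14 2.45-fold, while the organic anion carrier Slco4c1 fell 3.99-fold. Among 19 ion channel genes 8 rose and 9 fell, with 5 falls without vehicle replicate 3. The chloride channel gene Cftr read 6.03, 6.16 and 6.24 in vehicle and 4.52, 4.49 and 4.85 in bleomycin lungs (2.88-fold lower, adjusted p 0.00105), and the calcium-activated chloride channel regulator Clca3a1 rose 5.45-fold from a dim 2.83 to 3.86.

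Markers of tissues that can accompany a dissected lung also differed. Atrial myosin light chain (Myl7), expressed in the muscle sleeves of pulmonary veins and in the heart, read 5.15, 5.93 and 5.69 in vehicle and 4.28, 4.19 and 4.38 in bleomycin lungs, 2.48-fold lower. Phospholamban (Pln) fell 2.21-fold, and cardiac actin (Actc1, log2 difference -1.43, adjusted p 0.0713) and sarcolipin (Sln, -1.24, adjusted p 0.0843) did not pass. Of 5 measured members of the muscle list 2 fell and 1, desmin (Des), rose. Neither fall was called without vehicle replicate 2 or 3 or bleomycin replicate 2, and the rise only on all arrays or without bleomycin replicate 1. In the fat list 2 of 5 measured genes fell and 1 rose, the lipid droplet gene Cidec by 2.31-fold. A single fall was left without vehicle replicate 2 or 3 or bleomycin replicate 2 or 3, and no rise without vehicle replicate 3. Their part in the differences above was not tested.

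**Figure D3:**
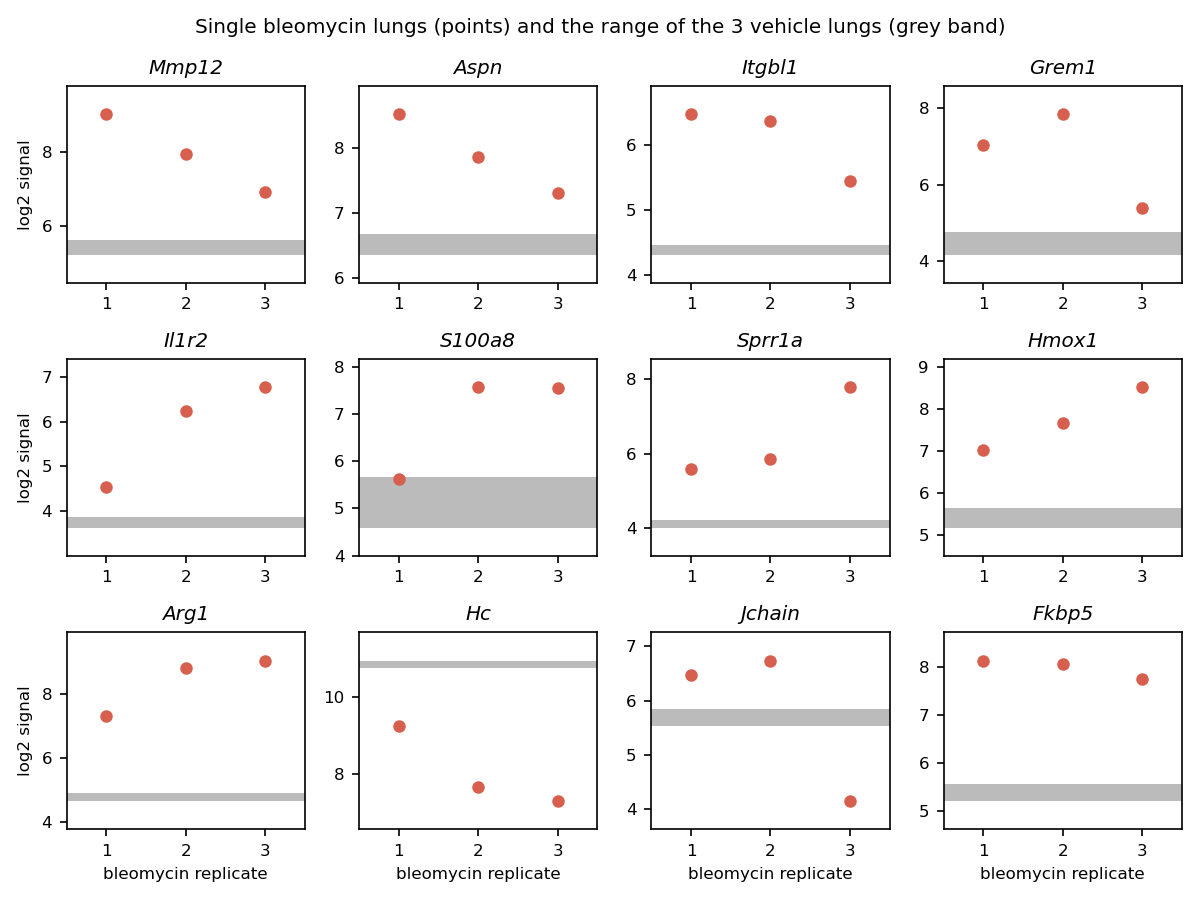
Log2 signal (y axis, one scale per panel) of 12 genes in each of the 3 bleomycin lungs (points, x axis replicate number), with the range of the 3 vehicle lungs as a grey band. Replicate 1 is highest for Mmp12 and Aspn and lowest for Il1r2 and Arg1, replicate 3 is lowest for Jchain and Itgbl1 and highest for Sprr1a and Hmox1, and the 3 lungs lie close together for Fkbp5.

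The 3 bleomycin lungs differed in degree and in pattern. Over the 3218 called probe sets, replicate 1 was the lung nearest to the vehicle mean in 1901 (59.1%), against 538 (16.7%) for replicate 2 and 779 (24.2%) for replicate 3. The median absolute log2 distance from vehicle was 0.68, 0.85 and 0.83 in replicates 1, 2 and 3. Since these probe sets were called on the same lungs, the shares describe the lungs and test nothing. Distance from vehicle was not a single scale for all gene groups. The median deviation of neutrophil genes was 0.86, 1.94 and 1.97 in replicates 1, 2 and 3, and that of transitional epithelium 0.88, 1.08 and 1.79. For lysosomal enzymes it was 1.19, 1.21 and 0.70, so there replicate 3 lay nearest to vehicle. Asporin (Aspn), a small collagen-binding proteoglycan, was also lowest in replicate 3 of the bleomycin lungs, and read 8.52, 7.86 and 7.31 over a vehicle range of 6.36 to 6.67. Its call was lost in 5 fits without 1 array.

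**Figure D4:**
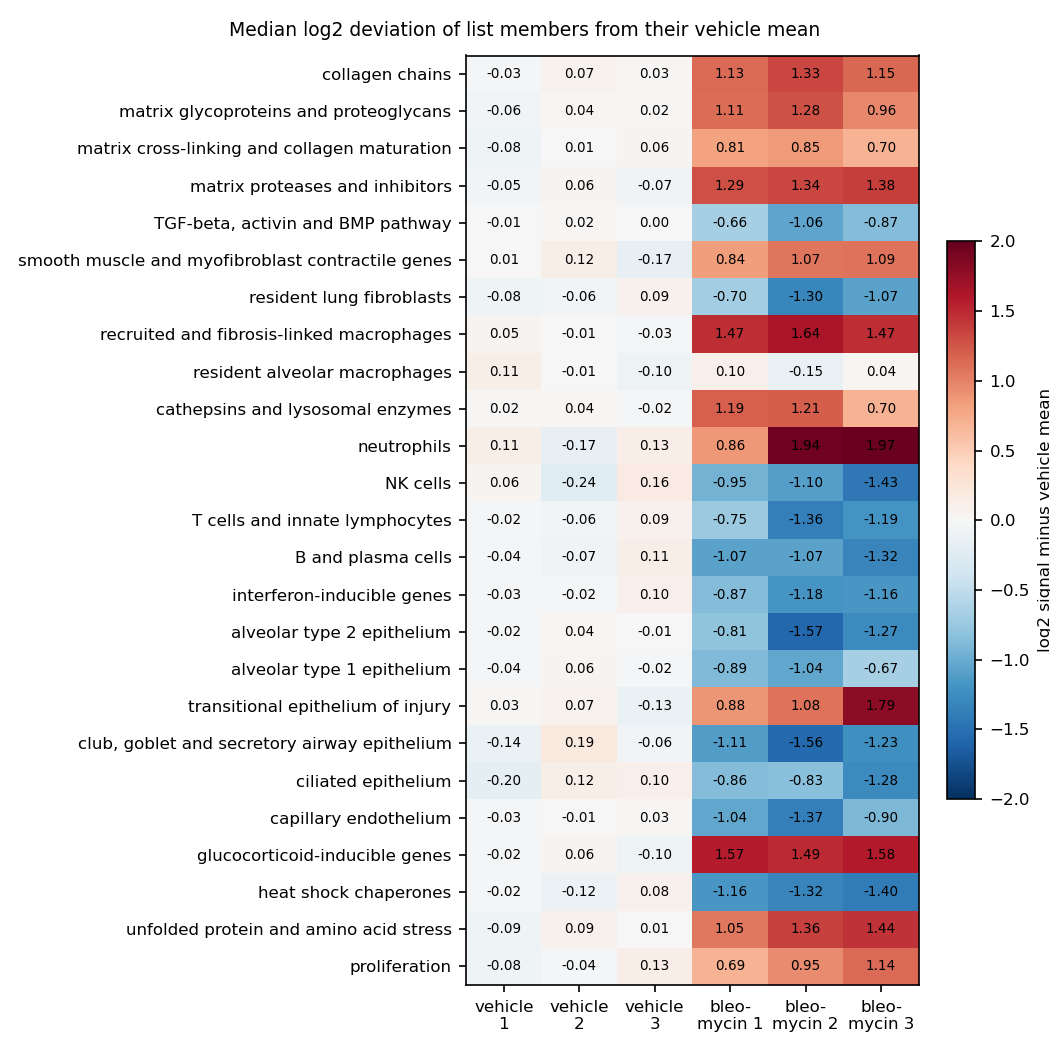
Median log2 deviation of the named members of 25 gene lists (rows) from their vehicle mean, in each of the 6 lungs (columns, numbers in cells, red higher, blue lower). The vehicle columns stay between -0.24 and 0.19, and the bleomycin columns differ most between lungs for neutrophil, transitional epithelium, type 2 and T cell genes.

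The authors' deposited tables cover the same comparison with another test. The authors' deposited table lists 2074 probe sets, 907 higher and 1167 lower, of which 1680 were also called by limma and 394 were not. A further 1538 were called by limma and not listed, 732 of them under a 1.5-fold difference. In the authors' deposited table of pathways, genes of the lysosome, of the phagosome and of contact between matrix and its receptors were mostly higher. The lysosome row of the authors' deposited table holds 23 of 134 genes, 21 higher and 2 lower, and the phagosome row 35 genes, 23 higher and 12 lower. Among the rows led by falls in the authors' deposited table were Rap1 signaling (11 higher, 24 lower), Ras signaling (8 and 19) and cell adhesion molecules (6 and 16). These rows count genes chosen on the same arrays.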

How the data were processed

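Total RNA of mouse lung was hybridised to Affymetrix arrays. The submitters' processing notes name R 3.5.1 and Affymetrix Power Tools. The normalization and the genome build were not given in the sources used here. Signals were taken as deposited by the authors, on a log2 scale (41345 probe sets). Per the file headers, the authors' comparison tables give a linear fold with its sign, the local pooled error statistic (a score) and an adjusted p-value per probe set, and their pathway table gives gene numbers and an FDR (a q-value) per pathway. Listed folds matched the group means (0 differed by over 0.1 percent).

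Gene symbols, coordinates and cross-hybridisation types come from the authors' comparison tables (2010 probe sets, 1908 genes). A gene with several probe sets was taken at its brightest. Type 3 probe sets can bind other transcripts, and 353 listed ones are of that type. Promoter and microRNA sequences are from RefSeq (GRCm38.p6).

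A limma 3.58.1 model of group means (R 4.3.3) was fitted to all 9 arrays (6 residual and 2.66 prior degrees of freedom), with the contrast bleomycin minus vehicle, eBayes, 2-sided tests and Benjamini-Hochberg adjustment over all probe sets at 0.05. "Rose" and "fell" mean past that threshold, and each fold is the antilog of the size of the log2 difference. No dim filter was applied, and an exact test of 3 against 3 arrays could not reach 0.05. The script was tested on simulated data. The number of arrays limits precision, and so do dim signals and probe sets that can bind other transcripts.

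A gene could be named in the text if it was among the 20 largest rises or 20 largest falls, a list member, or one on which probe sets or tests disagree most, and not every such gene is named. Some members are not reported here. The members and lists were chosen with earlier results of these data known. The labels give no pairing of arrays by number, and none was assumed. Deviations of same-numbered arrays from their group means had r of -0.137, -0.0468 and -0.031. Deviations from the mean of so few arrays constrain each other, so these values cannot exclude a pairing. Alternatives were the 6 arrays alone, a replicate block, array weights, a prior with trend and robust fitting, median centring, quantile normalization, a dim filter at a mean of 4.52, a 1.5-fold minimum, a threshold of 0.01, the mean over probe sets, and leaving out each array.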

Additional observations from a re-analysis of the deposited data

How the results depend on the processing

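Among the 641 genes that belong to a list or to the largest changes, none of those called changed sign under an alternative that gave it a value. The number of probe sets called was 2374 on the 6 arrays alone, 3370 with a trended robust prior, 3659 with array weights, 3279 after quantile normalization, 3139 after median centring, 4131 with the dim filter, 2486 with a 1.5-fold minimum, and 825 (358 higher, 467 lower) at a threshold of 0.01, which lowers the count by construction. Leaving out 1 array gave 1136 to 3396 calls, 517 to 1385 higher and 619 to 2011 lower; the cause was not tested. Median centring moved the split to 1581 higher and 1558 lower. With the replicate number as a replicate block, 2175 were called (936 higher, 1239 lower). The labels give no pairing by that number. Of these 641 genes, 62 lost their call on the 6 arrays alone, 65 under the block, 236 at 0.01, and 42 to 189 without 1 array. Dim signals and 3 arrays a group limit all folds.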

Other observations

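Several genes that the authors' deposited table lists were not called by limma. The largest such difference was in Retnlg, followed by Bpifb1 and the small nucleolar RNA gene Rnu3a, which read 8.37, 9.08 and 7.82 in vehicle and 10.22, 10.33 and 10.32 in bleomycin lungs (adjusted p 0.0625). The NK receptor gene Klra9 read 3.38, 3.33 and 4.79 against 2.68, 1.98 and 1.74 (adjusted p 0.0542), with the bleomycin values below the lower quartile.

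Of 45 genes with more than 1 named probe set, 2 had probe sets of opposite sign, and both are immunoglobulin genes.

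In the authors' deposited table of pathways, olfactory transduction has an FDR of 1.31e-08 with 4 of 1133 genes listed. The authors' deposited table lists 680 of 25768 genes in all (2.64%), so this pathway holds fewer listed genes than that share, and a small FDR there does not mark a pathway rich in changed genes.

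Among the largest rises, the cell adhesion gene Chl1 read 3.64, 3.47 and 3.10 in vehicle and 6.79, 7.08 and 6.37 in bleomycin lungs, and the neutrophil surface gene Cd177 4.78, 4.70 and 4.72 against 7.5, 8.05 and 6.54. Cd177 was lowest in replicate 3 of the bleomycin lungs. The ligand gene Tnfsf18 rose 6.09-fold from a dim 2.95 to 3.28, a call lost without vehicle replicate 2 or 3.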
